A study of Homo sapiens with 8 samples.

Results

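Collagens are extracellular matrix proteins in which chains carrying glycine-rich repeats wind around each other into a helix, and each chain is encoded by a gene of its own. The collagen chain genes were taken from the deposited gene table as protein-coding rows whose symbol reads COL, a type number, A and a chain number. This gave 43 genes of 30386 listed, or of 16828 protein-coding ones. They were grouped as 11 fibrillar chains, 8 chains of the basement membrane, 9 chains of the FACIT class (collagens that sit on the surface of fibrils) and 15 other chains. COL22A1 was not analysed here.

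The study sequenced messenger RNA of endothelial cells derived from the established human line WTC-TJP1, which consists of induced pluripotent stem cells. There were 4 samples labelled iEC, endothelial cells, and 4 labelled iREC, which the series title describes as retinal endothelial cells. Both groups come from the same line, carry the sample letters C, D, E and F and were analysed at passage 1. No agent or genotype separates the groups in the labels, the differentiation steps are not given in the sources used here, and nothing states that the samples of a group are separate differentiations. P-values therefore measure the spread between these samples, which may be technical.

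In vessels, endothelial cells and the mural cells around them lay down a basement membrane whose scaffold is the type IV collagen network, while fibril-forming collagens of types I, III and V are typical products of fibroblasts and other mesenchymal cells. Type IV chains associate through their ends into sheets. Fibrillar chains are made as procollagens, trimmed outside the cell and packed side by side.

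Total counts per sample ran from 13739364 to 16971865. Levels are given as CPM, counts scaled to a common library size by the trimmed mean of M-values (TMM). The detection floor was set at 3 counts, equal to 0.177 to 0.214 CPM depending on the library. PECAM1 and CDH5, which define endothelium, were high in all libraries: PECAM1 had at least 491 CPM and CDH5 at least 515 CPM. Of 12 endothelial markers, 5 were called lower in iREC, against 11.7% of all tested genes. PECAM1 and CDH5 were among them, though CDH5 was called in only 10 of the 15 alternatives. Another 3 were called higher, against 13.2% of all tested genes. The 3 were EMCN (4.20 ± 1.89 CPM in iEC, 431 ± 156 in iREC), TEK (58.8 ± 20.6 and 830 ± 271) and CLDN5 (365 ± 45.8 and 632 ± 228; SD, n = 4), of which CLDN5 was called in only 4 of the 15 alternatives. The library iREC F stood apart from the other iREC libraries. In it, 11 of 12 endothelial markers were at their lowest among the iREC libraries, and their summed level was 4558 CPM against 7881 to 10230. The summed level of 10 fibroblast or mesenchymal markers was 787 CPM in iREC F against 113 to 227, with 9 of the 10 at their highest there. For 12 rows of mural markers it was 1840 against 458 to 915 CPM (11 of 12 highest), and for 11 epithelial markers 4919 against 309 to 1126 CPM (8 of 11 highest, 3 lowest). Most of the epithelial sum in iREC F was KRT8 (3013 CPM) and KRT18 (1532 CPM). For 8 pluripotent markers the sum was 517 against 54.3 to 183 CPM (4 of 8 highest), most of it LIN28A (480 CPM). For 8 chondrocyte or osteoblast markers it was 31.9 against 6.72 to 24.6 CPM (3 of 8 highest).

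Collagen transcripts as a whole took a larger part of the iREC libraries. The 43 genes together held 0.650%, 0.749%, 0.401% and 0.784% of the counts in iEC C, D, E and F, and 1.38%, 1.43%, 1.53% and 1.71% in iREC C, D, E and F. Every iREC library was above every iEC library. On the deposited FPKM scale, which divides by gene length, the sum was 503 ± 149 in iEC and 1191 ± 221 in iREC (SD, n = 4). Basement membrane chains made up 73.3% ± 5.87 of this sum in iEC and 58.5% ± 7.71 in iREC, and fibrillar chains 12.7% ± 2.90 and 22.7% ± 8.19. The fibrillar share in iREC was 15.5% to 20.7% in C, D and E, and 34.5% in F. The gene lengths count all annotated exon bases of a gene and can exceed those of the transcripts present. Shares between genes are therefore approximate. In CPM, basement membrane chains had 5514 of a summed 6492 on average in iEC and 10797 of 15101 in iREC. These sums are descriptions and were not tested.

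**Figure D1:**
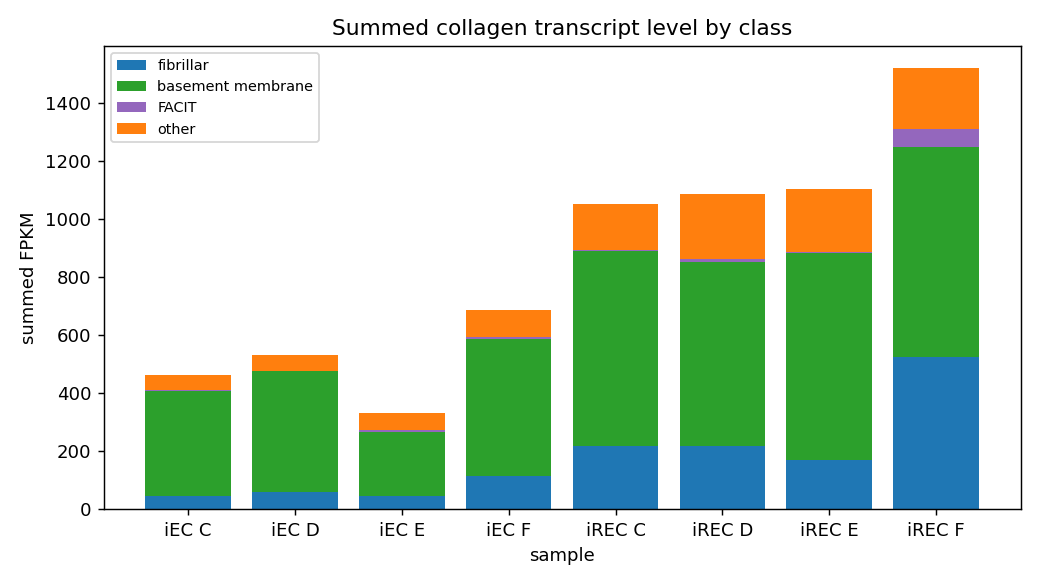
Summed FPKM of the collagen chain genes in each sample, stacked by class. The sums run from 330.0 to 688 in the iEC samples and from 1053 to 1521 in the iREC samples, and the fibrillar part of iREC F is 524 against 171 to 218 in the other iREC samples.

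Of the 43 genes, 17 fell below the filter on low counts and 26 were tested with all other genes by edgeR's quasi-likelihood test. A gene is called at an adjusted p under 0.05. The test called 8 of the 26, 6 higher and 2 lower in iREC, which is 30.8% against 25.0% of all 15330 tested genes (13.2% higher, 11.7% lower). In this fit the share is near the background, and a member can pass the filter through the group in which it is high. The 6 that rose were the fibrillar COL11A1 and COL5A2, the basement membrane chains COL4A1 and COL4A2, and COL8A1 and COL25A1. The 2 that fell were COL13A1 and COL17A1, both transmembrane collagens. The groups did not overlap in 9 of the 26, against 29.1% of all tested genes. The median log2 fold change was 0.73 over the 26 and 0.020 over all tested genes. Leaving out 1 library gave between 4 of 26 tested members (without iREC D) and 11 of 30 (without iEC F) called higher. In each of these 2 fits, 2 members were called lower. In either direction, 2660 of 15668 and 3675 of 15953 genes tested in those 2 fits were called. Without iREC F, 3 members were called lower. Without both F libraries, 15 of 27 tested members were called, 11 higher and 4 lower, against 27.4% of all tested genes. That setting was chosen after seeing the data.

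**Figure D2:**
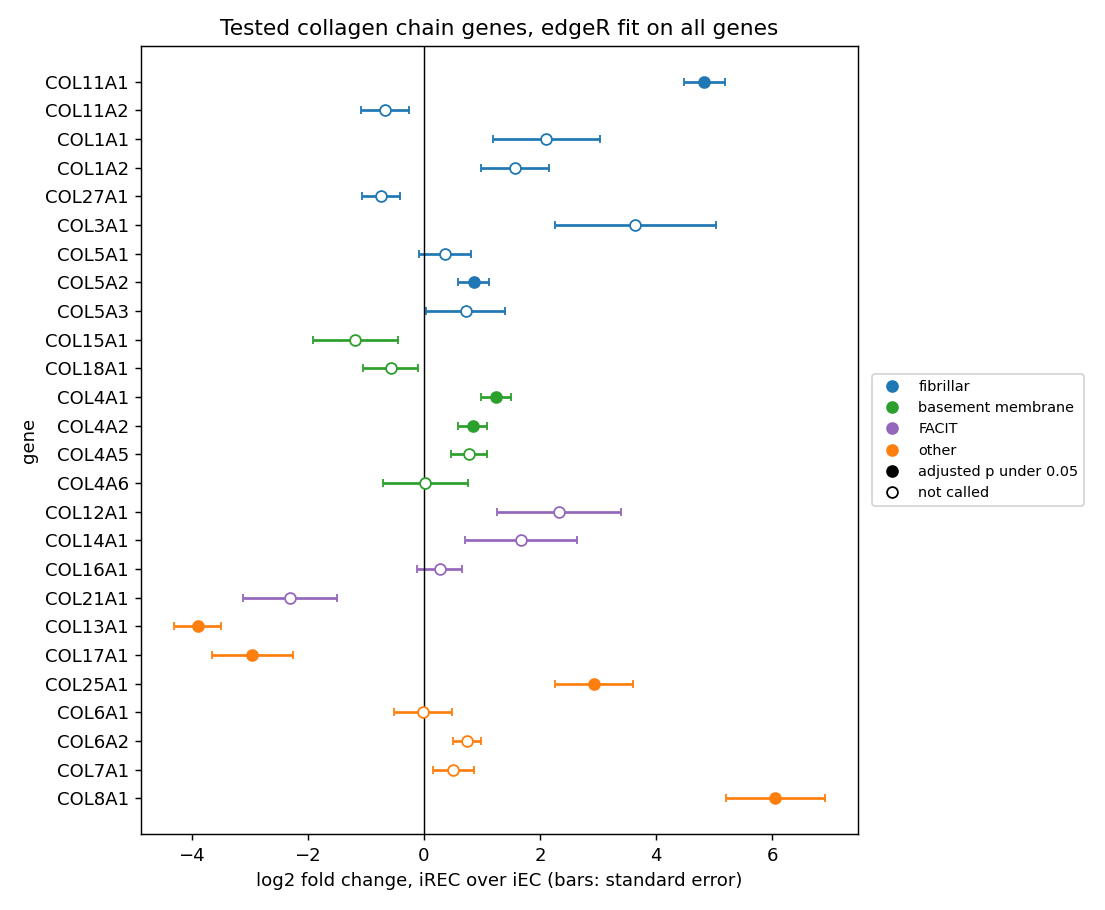
Log2 fold change of iREC over iEC for the 26 tested collagen chain genes, with standard errors as bars, grouped by class from top to bottom. Filled points passed the adjusted p threshold of 0.05: 6 lie to the right of 0 and 2 to the left.

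Type IV collagen was the most abundant collagen in both groups. COL4A1 and COL4A2 encode the chains of the form found in nearly all basement membranes, and together they made up 58.2% ± 9.37 of the summed collagen FPKM in iEC and 54.0% ± 10.1 in iREC (SD, n = 4). The genes lie head to head on chromosome 13 (COL4A1, ENSG00000187498, 110148963 to 110307233 on the minus strand; COL4A2, ENSG00000134871, 110305812 to 110513209 on the plus strand). The spans overlap, because an annotated COL4A2 transcript starts inside COL4A1. The RefSeq starts used here enclose 126 bases, chr13:110307158-110307283 (GRCh38.p14), of which 124 lie in annotated exons. This stretch has a GC content of 80.2% against a median of 60.3% for the same length before all listed RefSeq starts. Pieces of this shared start region are shown because both genes rose; capitals mark a GC box (GGGCGG) and a CCAAT box (CCAAT), searched on both strands together with the TATA box (TATAAA), which had no match:
chr13:110307207-110307236, plus strand: ccggcggtgcgcGGGCGGcgcctcaaaggg
chr13:110307167-110307196, plus strand: gggccgagctccCCAATttgttggcgctgc
Among 35116 RefSeq starts, 34.6% had a GC box, 21.1% a CCAAT box and 5.9% a TATA box in the 126 bases before the start. A match is a description of the letters and not of a bound site.

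COL4A1 had 3006, 3536, 1462 and 3108 CPM in iEC C, D, E and F, and 6821, 6167, 7065 and 6135 CPM in the iREC samples in the same letter order. The groups did not overlap, iEC E was the lowest, and the iREC samples lay within 1.15-fold of each other. The log2 fold change was 1.24 ± 0.26 (SE), or 2.36-fold, with an edgeR adjusted p of 0.00725. The call held under all 15 alternatives, with adjusted p up to 0.0218.

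COL4A2 had 1991, 2393, 1157 and 2770 CPM in iEC and 3676, 3438, 4086 and 3654 CPM in iREC. As for COL4A1, iEC E was lowest and the groups did not overlap, but the highest iEC sample was F here and D for COL4A1. Its log2 fold change was 0.84 ± 0.25 (SE; edgeR adjusted p 0.0338). This call did not hold without iEC C, iEC D, iREC C, iREC D or iREC E, with adjusted p up to 0.0889.

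The balance of these chains differed between the groups. Per length, the FPKM ratio of COL4A1 to COL4A2 was 1.98, 1.93, 1.65 and 1.47 in iEC C to F and 2.43, 2.35, 2.26 and 2.20 in iREC C to F. The ranges did not overlap. This difference was not tested. An error in the gene lengths applies equally to all samples only if both groups use the same transcripts, which was not examined.

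The minor type IV chains, which replace the common form in specialised membranes such as those of kidney, lung and eye, were far lower. COL4A5 (chromosome X, 108439844 to 108697545) had 54.2, 75.0, 85.4 and 104 CPM in iEC and 86.5, 114, 119 and 224 CPM in iREC, where F was highest, and it was not called (edgeR adjusted p 0.0914). Its head-to-head neighbour COL4A6 had 34.2 ± 15.9 CPM in iEC and 34.8 ± 37.8 CPM in iREC (SD, n = 4). The COL4A6 mean in iREC rested on F, with 89.9 CPM against 4.83 to 25.6 in the others. COL4A3 and COL4A4 were below the filter, with at most 0.730 and 2.48 CPM in any library.

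COL18A1 and COL15A1 encode collagens of basement membrane zones that carry anti-angiogenic fragments at their ends, endostatin in the case of COL18A1. COL18A1 (ENSG00000182871, chromosome 21, 45405137 to 45513720) had 467, 443, 453 and 788 CPM in iEC and 172, 310, 177 and 787 CPM in iREC. Both F libraries were high and the groups overlapped. The difference of -0.57 ± 0.47 (log2, SE) was not called (edgeR adjusted p 0.417). Leaving out iREC F gave -1.29 (edgeR adjusted p 0.0116), and leaving out both F libraries gave -1.05 (0.0144). SLC19A1, at a mean of 36.8 CPM, covers 1401 of the 8525 exon bases of COL18A1 (16.4%) on the opposite strand, and the strand setting of the counting is not given in the sources used here, so COL18A1 counts are uncertain to that extent. COL15A1 was low, at 6.39 CPM on average in iEC and 2.80 CPM in iREC, and not called.

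Among the fibrillar chains, COL11A1 showed the largest called rise. It encodes a chain of type XI collagen, a minor fibril component best known from cartilage, where it shares fibrils with type II collagen. The 126 bases before its RefSeq start on chromosome 1, chr1:103108523-103108648 on the minus strand (GRCh38.p14), are shown because this gene had one of the most even rises; capitals mark a CCAAT box read on the opposite strand (ATTGG) and a GC box:
COL11A1: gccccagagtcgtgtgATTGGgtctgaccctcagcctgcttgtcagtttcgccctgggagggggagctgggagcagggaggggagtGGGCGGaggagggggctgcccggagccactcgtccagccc
COL11A1 (ENSG00000060718, 102876467 to 103108872) had 25.4, 59.2, 21.3 and 29.3 CPM in iEC C, D, E and F and 1109, 881, 826 and 1021 CPM in iREC. The iREC samples lay within 1.34-fold of each other and far above all iEC samples. The log2 fold change was 4.83 ± 0.35 (SE), or 28.4-fold, with an edgeR adjusted p of 3.86e-05, and the call held under all 15 alternatives.

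The collagens that share cartilage fibrils with type XI were low. COL2A1 stayed below the filter, at most at 1.501 CPM, and COL9A1, COL9A2 and COL9A3, the FACIT chains of cartilage fibrils, reached at most 1.70 CPM in any library. COL11A2, the other gene named for type XI, had 2.52 ± 0.755 CPM in iEC and 1.57 ± 0.751 CPM in iREC (SD, n = 4; edgeR adjusted p 0.263). SOX9, the cartilage regulator, had 10.97, 1.77, 4.84 and 5.58 CPM in iEC and 0.131, 11.7, 4.26 and 7.63 CPM in iREC and was not called. Of 8 markers of chondrocytes or osteoblasts, 4 were tested and 2 were called higher in iREC, where 13.2% of all tested genes were. These were MATN3 (1.76 ± 0.502 and 6.61 ± 3.82 CPM) and ALPL (1.23 ± 0.549 and 3.69 ± 2.26 CPM, SD, n = 4). ALPL was called in only 5 of the 15 alternatives. The summed level of the 8 markers was 6.31 to 15.2 CPM in iEC and 6.72 to 31.9 CPM in iREC. The part of such cells in the COL11A1 values was not tested.

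COL5A2 encodes a type V chain that takes part in starting type I fibrils. It had 237, 268, 189 and 443 CPM in iEC and 556, 466, 396 and 643 CPM in iREC. The groups overlapped, because iEC F lay above iREC E. The log2 fold change was 0.86 ± 0.27 (SE; edgeR adjusted p 0.0415). The call was lost without any of iEC C, D or E or iREC C, D or F, with adjusted p up to 0.116. Its partner COL5A1 was not called. COL5A1 had 57.3, 99.7, 50.9 and 124 CPM in iEC and 75.7, 72.0, 61.0 and 217 CPM in iREC, and its log2 fold change of 0.36 turned to -0.26 without iREC F.

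The classical fibroblast collagens of types I and III had higher means in iREC, differed widely between libraries and were not called. COL3A1 (ENSG00000168542, chromosome 2, 188974320 to 189012746), the type III chain of elastic tissues and vessel walls, had 3.70, 9.78, 27.0 and 121 CPM in iEC C, D, E and F. In iREC it had 32.4, 254, 89.6 and 1634 CPM, a range of 50.4-fold. The highest library of each group was F, and iEC F lay above iREC C and iREC E. The log2 fold change was 3.64 ± 1.39 (SE), with an edgeR adjusted p of 0.0863.

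COL1A1 (chromosome 17, 50183289 to 50201632) and COL1A2 (chromosome 7, 94394561 to 94431232) encode the chains of type I collagen, the main collagen of skin and bone. COL1A1 had 23.5, 11.4, 16.6 and 100.5 CPM in iEC and 35.1, 111, 57.9 and 447 CPM in iREC (edgeR adjusted p 0.127). COL1A2 had 18.5, 26.0, 21.4 and 68.3 CPM in iEC and 83.4, 54.8, 40.6 and 217 CPM in iREC (edgeR adjusted p 0.0835). In both genes F was the highest library of each group.

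The sizes and calls for these chains moved with the F libraries and with the model. Without iREC F, the log2 fold changes were 1.63 for COL3A1, 0.84 for COL1A1 and 0.83 for COL1A2, and edgeR called none of the 3 (adjusted p 0.287, 0.424 and 0.212). Without iEC F, COL3A1 changed by 5.21 on the log2 scale (edgeR adjusted p 0.0422), COL1A1 by 3.24 (0.0355) and COL1A2 by 2.17 (0.0286). Without both F libraries the values were 3.21, 1.99 and 1.44, with edgeR adjusted p of 0.0330, 0.0137 and 0.00682. DESeq2 called COL3A1 (adjusted p 0.0302) and COL1A2 (0.0219) with all samples. Per length, the FPKM ratio of COL1A1 to COL1A2 ran from 0.499 to 1.67 in iEC and, within iREC, between 0.478 (C) and 2.34 (F).

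The remaining fibrillar chains were low or not called. COL27A1 had 38.7 ± 18.3 CPM in iEC and 23.2 ± 6.60 CPM in iREC (SD, n = 4; edgeR adjusted p 0.125), and without both F libraries it was called lower (log2 fold change -1.07, adjusted p 0.0432). COL5A3 had at most 4.69 CPM in any library, and COL24A1 at most 0.304 CPM.

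Of the 9 FACIT genes, 4 were tested and 0 were called by edgeR, with 1 at an unadjusted p under 0.05, while DESeq2 and limma-voom each called 1, COL21A1. COL12A1, whose product lies on type I fibrils in dense connective tissue, was the only FACIT chain with a group mean above 10 CPM. It had 24.2, 11.7, 75.2 and 80.3 CPM in iEC and 18.0, 143, 54.1 and 745 CPM in iREC, so that iREC C lay below 3 of the iEC libraries and iREC F above all (edgeR adjusted p 0.143). COL14A1 had 11.03 CPM in iREC F against 0.568 to 2.21 CPM in the other libraries. COL21A1 was near the floor, at 0.650 to 1.07 CPM in iEC and at most 0.356 CPM in iREC, with 0 counts in iREC E and F (edgeR adjusted p 0.0663).

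Outside these classes, COL8A1 had the largest fold change of all tested collagens. It encodes a short chain of type VIII collagen, which forms lattices under the corneal endothelium and in the inner wall of blood vessels. COL8A1 (ENSG00000144810, chromosome 3, 99638475 to 99799226) had 5.32, 3.15, 16.9 and 49.4 CPM in iEC C, D, E and F and 852, 1430, 1387 and 1259 CPM in iREC. The iREC libraries lay within 1.68-fold of each other, whereas iEC spanned 15.7-fold with F highest. The log2 fold change was 6.05 ± 0.86 (SE; edgeR adjusted p 0.00107), and over the alternatives it ran from 5.67 to 7.18 and was called each time. In the authors' deposited table COL8A1 has no p-value, so it is not among the 15 collagen genes (12 higher, 3 lower) that this table lists with an adjusted p below 0.05, where it lists 16.3% of all its genes. Its partner chain COL8A2 stayed below the filter, at most at 1.40 CPM.

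COL25A1 and COL13A1, both membrane-spanning collagens, moved in opposite directions. COL25A1, whose shed ectodomain was first found in amyloid plaques, lies on chromosome 4 (108808725 to 109302752). It had 27.6, 19.5, 3.66 and 2.50 CPM in iEC C, D, E and F and 122, 99.2, 104 and 79.4 CPM in iREC. The iEC libraries fell into a higher pair, C and D, and a lower pair, E and F, and all lay below iREC. The log2 fold change was 2.93 ± 0.68 (SE; edgeR adjusted p 0.0125), called under all 15 alternatives.

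COL13A1, a chain of cell-matrix adhesions and of the neuromuscular junction, fell. The 126 bases before the RefSeq starts of COL13A1 and of COL25A1, which rose, each had 0 matches to the 3 searched motifs. A link between motifs and direction was not tested. For COL13A1 the part without annotated exons, chr10:69801780-69801866 on the plus strand (GRCh38.p14), is shown, with no letters in capitals:
COL13A1: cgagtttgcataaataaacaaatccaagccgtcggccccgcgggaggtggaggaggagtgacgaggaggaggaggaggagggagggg
COL13A1 (ENSG00000197467, 69801867 to 69964275) had 87.1, 45.0, 154 and 126 CPM in iEC and 5.61, 10.5, 5.29 and 6.33 CPM in iREC. All iREC libraries lay below all iEC libraries. The log2 fold change was -3.90 ± 0.41 (SE), 14.9-fold lower, with an edgeR adjusted p of 0.000223, and it was called under all 15 alternatives. COL17A1, the hemidesmosome collagen of epithelia, was low throughout and also fell; it had 3.16 ± 1.64 CPM in iEC and 0.407 ± 0.407 CPM in iREC (SD, n = 4), with an edgeR adjusted p of 0.0131, on 1 to 14 counts per iREC library.

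Type VI collagen, a beaded filament linking cells to the surrounding matrix, is assembled from COL6A1 and COL6A2 chains with COL6A3 or a related chain. COL6A2 had 139.6, 190.0, 87.5 and 200.5 CPM in iEC and 269, 266, 286 and 208 CPM in iREC. The groups did not overlap, but the margin between iEC F and iREC F was small and the gene missed the threshold, at a log2 fold change of 0.74 ± 0.24 (SE) with an edgeR adjusted p of 0.0538. It was called without iEC F (0.0373), without iREC F (0.0422) and by DESeq2 (0.0261). COL6A1 had 70.9 ± 45.1 CPM in iEC and 69.8 ± 48.3 CPM in iREC (SD, n = 4), with F highest in both groups. COL6A3 was below the filter, with at most 6 counts in any iEC library. It had 1, 11, 8 and 118 counts in iREC C, D, E and F, and 7.70 CPM in F. The alternative chains COL6A5 and COL6A6 reached at most 1.70 and 5.02 CPM. COL7A1, the anchoring fibril chain, had 6.41 CPM in iEC and 9.10 CPM in iREC on average and was not called (edgeR adjusted p 0.336). COL10A1, COL23A1, COL26A1 and COL28A1 were below the filter. COL23A1 had at most 1.22 CPM in any library. Its counts were 3, 0, 0 and 1 in iEC and 17, 13, 20 and 6 in iREC. It was called higher in the 7 alternatives that tested it, among them the fit without the filter. In the others it could pass the filter only through iREC, where it is high, so these calls are no separate support.

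**Figure D3:**
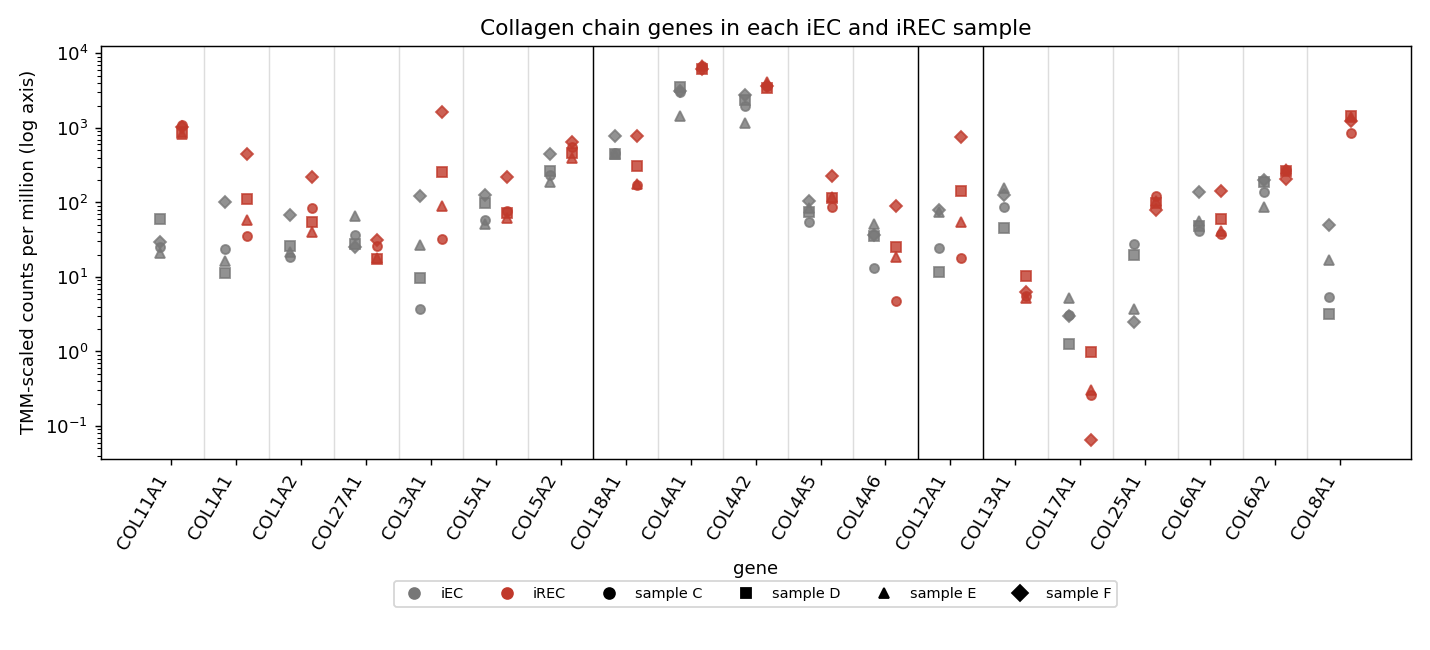
TMM-scaled CPM, on a log axis, of the 19 collagen chain genes that averaged 10 CPM or more in iEC or iREC or were called, 1 point per sample. Grey points are iEC, red points iREC, marker shapes give the sample letter, and black lines part the classes (fibrillar, basement membrane, FACIT, other); COL11A1 and COL8A1 are tight in iREC, while COL3A1 spans 32.4 CPM (C) to 1634 CPM (F) there.

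The iREC replicates thus spread very differently from gene to gene. Over the 18 collagen genes that averaged 10 CPM or more in iEC or iREC, the highest iREC library exceeded the lowest by a median of 2.29-fold, against 1.41-fold over the 10254 tested genes at that level. In 6 of the 18 the range exceeded 4-fold, against 4.19% of those genes. The widest were COL3A1 (50.4-fold), COL12A1 (41.5-fold), COL4A6 (18.6-fold) and COL1A1 (12.7-fold). The narrowest were COL4A1, COL4A2 and COL11A1 (1.15-, 1.19- and 1.34-fold). In iEC the median was 3.08-fold against 1.45-fold, and there the called genes COL8A1 and COL25A1 were among the widest, at 15.7- and 11.05-fold.

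The iREC F library was the highest for 11 of the 18 collagen genes, against 37.3% of all genes at that level. Within iEC, F was highest for 12 of the 18, against 36.2%. COL1A1, COL3A1, COL12A1, COL18A1, COL4A6 and COL6A1 shared the order C, E, D, F from low to high in iREC, an order seen in 7.97% of all genes at that level. The order was picked because these genes have it, and they share the libraries. Setting them beside that share is therefore a description and no test.

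Some markers of other cell types had the same order and others did not. It held for 4 of 10 fibroblast or mesenchymal markers, 3 of 12 rows of mural markers, 5 of 11 epithelial and 3 of 8 pluripotent markers. For chondrocyte or osteoblast markers it held in 3 of 8, and for endothelial markers in 0 of 12. The order was taken from the collagen values. Some of these markers averaged under 10 CPM, a level that the share over all genes does not cover. Among those with the order, the fibroblast proteoglycan gene LUM had 1.96, 13.8, 61.7 and 427 CPM in the iREC samples taken as C, E, D and F. DCN had 0.588, 4.20, 17.7 and 133 CPM, and had 0 counts in iEC C, D and E. PDGFRB, the mural cell receptor, had 4.70, 10.3, 27.0 and 127 CPM. Among those without it, the contractile mural gene TAGLN had 731, 317, 555 and 866 CPM in C, E, D and F, against 25.3 to 58.1 CPM in iEC. THY1 had 23.3, 13.5, 11.5 and 8.61 CPM, against 48.3 ± 28.7 CPM in iEC (SD, n = 4). It was called lower in iREC (edgeR adjusted p 0.0216) and in 12 of the 15 alternatives. Of 4 tested fibroblast or mesenchymal markers, 1 was called higher and 2 lower. Of 9 tested rows of mural markers, 4 were called higher and 1 lower. Over all tested genes the shares were 13.2% higher and 11.7% lower. In bulk RNA, a change in the number of cells of a type and a change in RNA per cell cannot be told apart, and the part of these cells in the collagen values was not tested. COL11A1, COL8A1, COL25A1, COL4A1 and COL4A2 did not have this order. In these 5 genes the groups did not overlap, so that each was above every iEC library in iREC C follows from that. Also above every iEC library in iREC C were 5 of the 12 rows of mural markers and 3 of the 10 fibroblast or mesenchymal markers. The same held for 4 of the 12 endothelial, 3 of 8 chondrocyte or osteoblast, 1 of 11 epithelial and 0 of 8 pluripotent markers. The share over all genes was not taken.

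**Figure D4:**
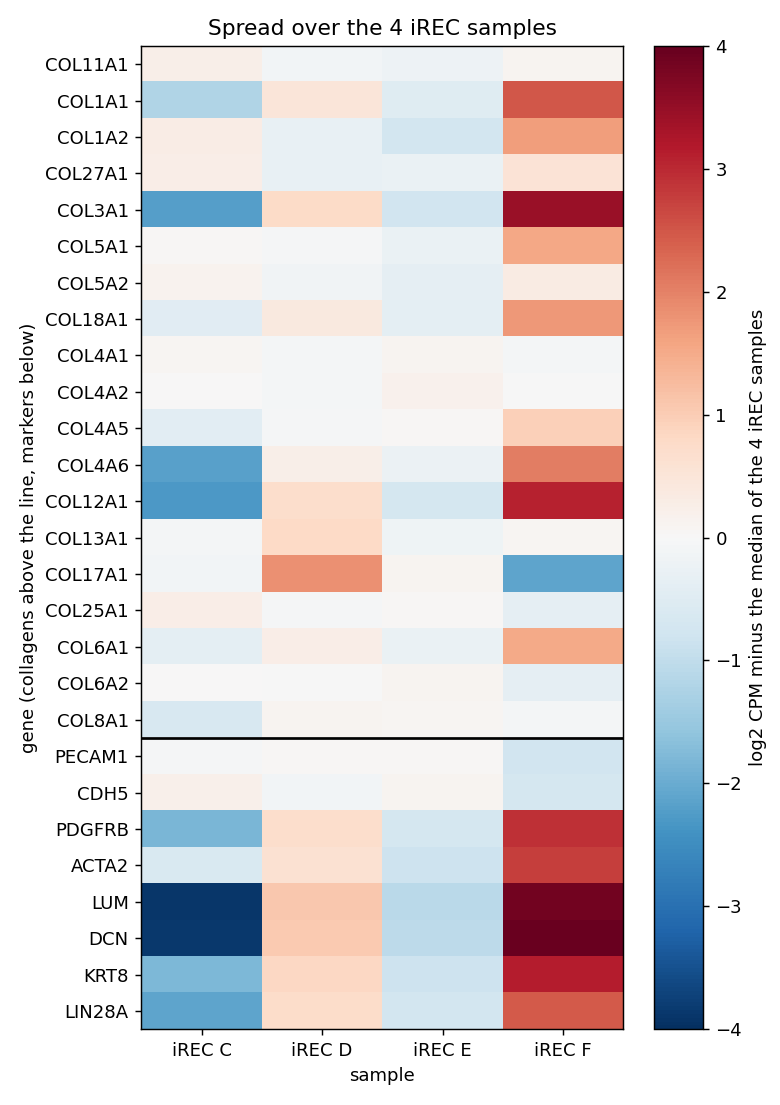
Log2 CPM of each gene in the 4 iREC samples minus the median of those samples; collagen genes are above the line and marker genes of endothelial (PECAM1, CDH5), mural (PDGFRB, ACTA2), fibroblast (LUM, DCN), epithelial (KRT8) and pluripotent (LIN28A) cells below it. COL3A1 lies 2.22 below the median in C and 3.44 above it in F, while COL4A1 stays within 0.12 of it. The marker genes shown are a selection and do not stand for their lists. The order C, E, D, F held for 4 of 10 fibroblast or mesenchymal markers and 3 of 12 rows of mural markers. It held for 5 of 11 epithelial and 3 of 8 pluripotent markers. THY1, a fibroblast marker not shown, was lowest in F.

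The machinery that builds, exports and fixes collagen was followed in lists drawn up by function, holding 58 tested genes in all, of which 15 were called higher (25.9%) and 5 lower (8.62%), against 13.2% and 11.7% of all tested genes. The lists are small, so each count is a description beside those shares. Of 17 tested genes for hydroxylation, glycosylation and folding in the endoplasmic reticulum, 4 rose and 1 fell, and 12 were not called. P3H2, a prolyl 3-hydroxylase that acts on type IV collagen, had 19.6, 18.3, 22.3 and 20.4 CPM in iEC and 180, 219, 206 and 251 CPM in iREC. PLOD2, a lysyl hydroxylase of the ends of fibrillar collagens, had 33.3, 35.2, 37.9 and 29.9 CPM in iEC and 226, 189, 212 and 152 CPM in iREC. Neither gene's groups came near each other, and the log2 fold changes were 3.41 ± 0.14 and 2.52 ± 0.15 (SE; edgeR adjusted p 3.71e-06 and 1.75e-05). The collagen galactosyltransferase COLGALT2 also rose, though its iREC libraries ran from 5.35 CPM (C) up to 73.0 CPM (F; edgeR adjusted p 0.00662). Its call was lost in 1 of the 15 alternatives. P3H4 was the fourth gene of this list that rose, but it was called in only 7 of the 15 alternatives (adjusted p up to 0.0947). FKBP14, a prolyl isomerase, fell, with 61.8 ± 9.18 CPM in iEC and 39.6 ± 5.14 CPM in iREC (SD, n = 4), at an edgeR adjusted p of 0.0119. The collagen chaperone SERPINH1 had 692 ± 195 and 719 ± 175 CPM (SD, n = 4; edgeR adjusted p 0.887).

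Of 12 tested genes for the export of procollagen, edgeR called 0, with 2 at an unadjusted p under 0.05. DESeq2 called 1, SEC31A, and limma-voom 0. Of 5 tested genes for cutting off propeptides, 2 rose. TLL1, a procollagen C-proteinase of the tolloid family, had 2.86, 2.65, 2.72 and 1.29 CPM in iEC and 238, 172, 210 and 90.4 CPM in iREC (log2 fold change 6.21 ± 0.39, SE; edgeR adjusted p 2.03e-05). The procollagen N-proteinase ADAMTS3 had 36.3 CPM in iREC F and 3.66 to 5.55 CPM in the other iREC libraries (edgeR adjusted p 0.0181), and was not called in 4 of the 15 alternatives. Of 7 cross-linking genes, 2 rose and 1 fell. The lysyl oxidase-like gene LOXL1 rose, with 8.31 ± 3.40 CPM in iEC and 38.3 ± 12.5 CPM in iREC (SD, n = 4), at an edgeR adjusted p of 0.00120.

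Of 6 tested genes whose products sit on collagen fibrils, 5 rose. BGN, the proteoglycan biglycan, had 39.9, 48.8, 7.03 and 6.86 CPM in iEC C, D, E and F and 513, 434, 509 and 496 CPM in iREC, so that it shared with COL25A1 the split of iEC into C and D against E and F. FN1, the fibronectin on which fibrils are laid down, had 335 ± 173 and 13337 ± 3039 CPM (SD, n = 4; edgeR adjusted p 7.45e-05). LUM rose too (edgeR adjusted p 0.0333), but iREC C lay below iEC F, and it was not called in 6 of the 15 alternatives.

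Collagen receptors changed in both directions, with 2 of 11 tested higher and 3 lower. ITGA2, the integrin subunit that binds fibrillar collagen, fell from 163, 193, 271 and 188 CPM in iEC to 13.1, 19.8, 18.6 and 20.2 CPM in iREC (log2 fold change -3.51 ± 0.21, SE; edgeR adjusted p 1.75e-05). ADGRG1, a G protein-coupled receptor for type III collagen, fell to 5.80 ± 1.44 CPM in iREC, against 176 ± 37.6 CPM in iEC (SD, n = 4), with an edgeR adjusted p of 8.69e-06. ADGRG6, a related receptor for type IV collagen, rose from 21.4 ± 16.1 to 712 ± 155 CPM (edgeR adjusted p 0.000360). The endocytic collagen receptor MRC2 rose from 5.51 ± 3.84 to 22.4 ± 7.60 CPM (edgeR adjusted p 0.0152). ITGA1, the other main collagen-binding integrin subunit of endothelium, had 252 ± 65.3 and 265 ± 87.9 CPM and was not called (edgeR adjusted p 0.861).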

How the data were processed

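Messenger RNA of 4 iEC and 4 iREC samples was sequenced after poly-T selection, with dUTP in the second strand, per the labels' protocols. Per the submitters' processing notes, fastp, HISAT2 2.0.5 and the hg38 build were used; the counting program and its strand setting are not given in the sources used here. The authors deposited raw counts, a normalized signal (each count divided by 1 size factor per sample), FPKM, and their log2 fold changes with p-values and adjusted p-values. Counts were tested as deposited. All 30386 listed starts and ends match GENCODE release 29.

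Counts were filtered with filterByExpr, scaled by TMM and tested with edgeR 4.0.16's quasi-likelihood test in R 4.3.3 over 15330 genes, with Benjamini-Hochberg adjustment and a threshold of 0.05; the procedure was tested on simulated data. CPM are TMM-scaled. Total counts were 13739364 to 16971865 per sample; the floor of 3 counts covers counting error only, while SDs and SEs include the spread between samples. Alternatives included DESeq2 1.42.0, limma 3.58.1 (voom), other scalings, no filter, a block on the sample letter, and leaving out each sample, or both F libraries, the last chosen after seeing the data. Collagen genes with a group mean of at least 10 CPM or a call were described in full, and in each pathway list up to 3 called genes per direction with that mean. COL2A1, COL7A1, COL11A2, COL14A1, COL15A1, COL21A1, COL23A1, SEC31A, P3H4, SERPINH1, ITGA1, SOX9, MATN3, ALPL, EMCN, TEK, CLDN5, TAGLN and THY1 fall outside this rule and were named after their values were seen. Members and lists were chosen with earlier results of these data known. Promoter sequences are from RefSeq (GRCh38.p14), in which 32 of the 43 genes were listed.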

Additional observations from a re-analysis of the deposited data

Results flagged for a closer look

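In 2 of 42 groups of 4 samples, 1 sample stood far from the others by Dixon's test, where chance flags about 1 in 20, or 2.1. COL5A1 had a log2 CPM of 7.77 in iREC F, where C, D and E had 5.94 to 6.25. COL18A1 had a log2 CPM of 9.62 in iEC F, where C, D and E had 8.79 to 8.87.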

How the results depend on the processing

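Over 19 collagen genes and 15 alternatives, 241 of 285 fold changes kept their direction and side of the threshold, 21 were newly called, 12 lost their call and 11 changed sign. COL11A1, COL4A1, COL8A1, COL25A1, COL13A1 and COL17A1 were called each time. The number of collagen genes called higher ran from 4 (of 26 tested) to 11 (of 30 tested) when 1 sample was left out. Without both F libraries it was 11 of 27 tested, with 4 called lower, while 27.4% of all tested genes were called. The cause was not tested. The sign changes were in genes that were never called. COL4A6 was -0.53 with limma-voom, -0.53 with the replicate block, -1.06 to 0.39 with 1 sample left out and -1.03 without both F libraries. COL5A1 was -0.26 to 0.62 and COL6A1 -0.62 to 0.52 with 1 sample left out, and COL6A1 was 0.0015 with library totals only. Without the filter, COL4A4, COL6A6 and COL23A1 were also called. The letters share only a letter: deviations of same-letter samples correlated at 0.17 (C), -0.079 (D), 0.029 (E) and 0.25 (F), and not every sample correlated best with its own letter. With the replicate block, 3334 genes were called against 3829, and 9 collagen genes were called higher (COL1A1, COL1A2, COL3A1 and COL4A5 gained, with edgeR adjusted p of 0.0194, 0.00684, 0.00536 and 0.0159, and COL4A2 lost, at 0.0592). A count of 3 corresponded to 0.177 to 0.214 CPM, which limits what can be said of the chains near the floor.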
